A study of Mus musculus with 6 samples.

Results

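The 38 genes described here are markers of the somatic and mesenchymal cells of the testis, measured in the GC-2spd line. They were taken by name: 14 markers of Sertoli cells, 3 transcription factor genes shared by Sertoli and Leydig cells, 7 markers of Leydig cells, 5 of peritubular myoid cells and 9 of fibroblasts and other mesenchymal cells. All 38 were found among the 43412 annotated genes of the files. GC-2spd is an immortalized line derived from mouse spermatocytes. It is 1 line, and its labels give testis as the tissue and C57BL/6J as the strain background. The 3 hypoxia libraries came from cells kept at 1% oxygen, and the 3 normoxia libraries from cells kept at 21% oxygen. Both groups grew in the same serum-supplemented medium, and the labels do not say whether replicate libraries stem from separate cultures. The p-values therefore measure the spread between these libraries, which may be technical.

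In the testis, Sertoli cells surround the germ cells, form the blood-testis barrier, answer to follicle-stimulating hormone and secrete growth factors that keep the germ line alive. Leydig cells lie between the tubules and make testosterone under luteinizing hormone. Myoid cells are contractile cells around each tubule, and fibroblast-like cells fill the interstitium. None of these cell types is a germ cell. Levels are given in TPM, a gene's transcripts as a share of the library's transcripts, which is scaled for transcript length and can be compared between genes.

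Promoter sequences are shown for 4 members because they are the growth factor genes (Gdnf, Kitl) and the most abundant cytoskeletal and fibroblast markers (Vim, S100a4) that changed under hypoxia. Each is the 250 bases before a RefSeq start on GRCm38.p6, plus strand, 5′ to 3′. Capitals mark matches to ACGTG or GCGTG, the core letters of a hypoxia response element, on either strand (CACGT or CACGC as printed). ACGTG is also part of the E-box CACGTG. The second RefSeq start of Gdnf (chr15:7813477-7813726) held no match. RefSeq starts can differ from the gene starts used in quantification. The Vim window lies within its gene as quantified (from 13573927), and the Kitl window covers its gene's start (100015630). The printed Gdnf window ends before its gene's start (7811011), and the S100a4 window ends directly before its own (90603770).
Gdnf, chr15:7809798-7810047: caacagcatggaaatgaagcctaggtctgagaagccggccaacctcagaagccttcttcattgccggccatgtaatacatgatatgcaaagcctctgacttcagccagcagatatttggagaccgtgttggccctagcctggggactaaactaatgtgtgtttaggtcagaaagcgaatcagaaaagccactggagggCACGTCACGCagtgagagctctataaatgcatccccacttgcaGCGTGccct
Kitl, chr10:100015571-100015820: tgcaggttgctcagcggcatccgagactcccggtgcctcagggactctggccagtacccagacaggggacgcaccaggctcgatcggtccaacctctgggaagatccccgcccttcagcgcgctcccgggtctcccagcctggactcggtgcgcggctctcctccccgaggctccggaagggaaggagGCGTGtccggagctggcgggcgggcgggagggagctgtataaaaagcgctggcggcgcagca
Vim, chr2:13574061-13574310: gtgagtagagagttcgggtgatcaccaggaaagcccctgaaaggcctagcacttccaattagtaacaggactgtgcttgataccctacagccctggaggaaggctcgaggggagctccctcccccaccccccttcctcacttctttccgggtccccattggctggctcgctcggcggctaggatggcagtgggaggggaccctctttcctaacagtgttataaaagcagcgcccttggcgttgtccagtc
S100a4, chr3:90603520-90603769: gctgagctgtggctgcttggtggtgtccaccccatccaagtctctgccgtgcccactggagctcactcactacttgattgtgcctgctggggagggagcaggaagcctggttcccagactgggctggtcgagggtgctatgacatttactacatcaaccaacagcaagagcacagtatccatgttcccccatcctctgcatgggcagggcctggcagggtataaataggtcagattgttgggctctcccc
Gdnf held 3 matches and Kitl held 1, whereas the windows of Vim and S100a4 held none. Of all 32851 windows of this length in the table, 38.6% held at least 1 match. That share is per window, whereas members are counted below per gene, by the window with the most matches, so the 2 are unlike measures. Promoters were listed for 23 of the 38 members. Among the tested members, a match was found in 3 of 6 higher genes, 0 of 4 lower genes and 2 of 3 genes without a call. These counts include Cnn1 (higher, 1 match) and Des (lower, 0 matches), which reached a mean of at least 1 TPM in 1 group only. Neither call is used as support, and no difference between the counts was tested. A match is a run of letters and was not tested as a binding site.

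Each hypoxia library held 5.8 to 6.72 gigabases of aligned sequence and each normoxia library 5.75 to 6.61, as worked out from the coverage and FPKM columns. The files hold no read counts, so no counting interval can be given. Pearson's r across genes was 0.988 to 0.989 between libraries of a group and 0.951 to 0.953 between groups (genes are not independent replicates). Over the 13749 tested genes the median log2 fold change, hypoxia over normoxia, was −0.13, and the values below are read against it. Of these genes 2463 were higher and 4967 lower. Median-ratio scaling moved the median to 0.01 (3660 higher and 3578 lower), and quantile normalization moved it to 0.0025 (3575 higher and 3639 lower).

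The marker lists were first set side by side in normoxic cells, which asks what the line expresses before treatment. Among all 43412 annotated genes 13764 reached a mean of at least 1 TPM. Of the 38 members 20 did. These were 7 of 14 Sertoli markers, 3 of 3 shared gonadal factors, 2 of 7 Leydig markers, 3 of 5 myoid markers and 5 of 9 mesenchymal markers. On the lists of other somatic cell types, 3 of 8 macrophage, 1 of 7 endothelial and 1 of 8 epithelial markers did so. By contrast, 0 of 26 germ cell markers reached that level, and 12 of them were listed at 0 in all 6 libraries. The germ cell gene with the highest normoxic mean was Gfra1, a receptor of spermatogonial stem cells, at 0.555 ± 0.158 TPM in hypoxia and 0.627 ± 0.0266 TPM in normoxia (SD, n = 3 each). The summed level of the germ cell list was 1.04 to 1.42 TPM in hypoxia and 1.62 to 2.2 TPM in normoxia. The label of a germ cell line is therefore not matched by the germ cell markers of this list in these libraries. This list was chosen with earlier results of these data known.

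**Figure D1:**
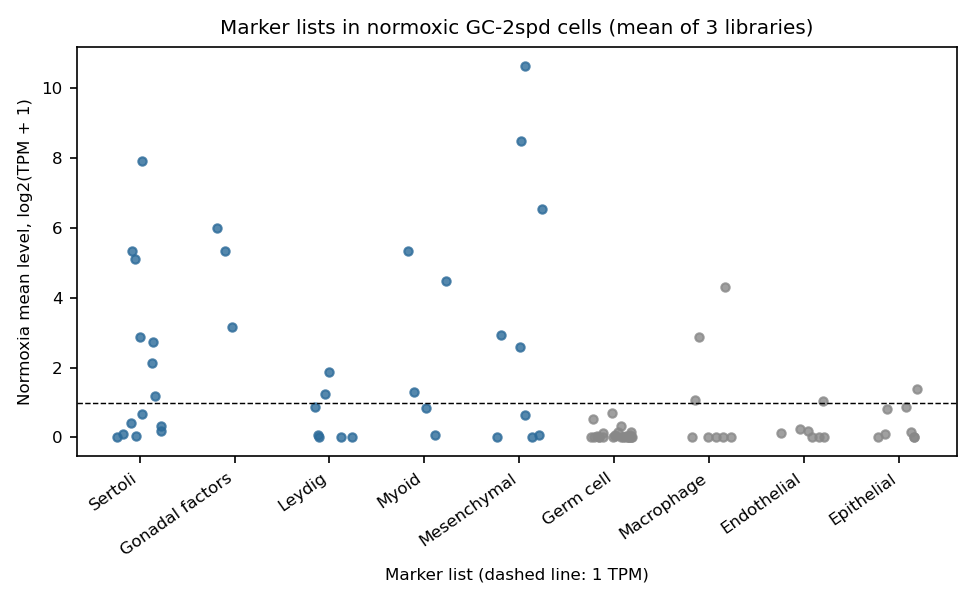
Mean normoxic level of each marker gene as log2(TPM + 1), on the vertical axis, by marker list, on the horizontal axis; each point is 1 gene (mean of 3 libraries), blue for the somatic and mesenchymal lists and grey for the other lists. The dashed line is 1 TPM: 0 of 26 germ cell genes lie above it, against 5 of 9 mesenchymal genes.

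No somatic cell type was complete either. Of the Sertoli list, Fshr, the receptor of follicle-stimulating hormone, was listed at 0 in all 6 libraries. Of the Leydig list, the steroid enzyme genes Hsd3b1 and Hsd17b3 and the luteinizing hormone receptor gene Lhcgr were listed at 0 in all 6. Of the mesenchymal list, the surface glycoprotein gene Thy1 and the stromal transcription factor gene Tcf21 were listed at 0 in all 6. A listed 0 in a file without counts can be a failed estimate. The transcription factor gene Nr5a1, which drives steroidogenic fate, was in contrast at 57.8 ± 0.678 TPM in hypoxia and 62.8 ± 1.91 TPM in normoxia (SD, n = 3 each).

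**Figure D2:**
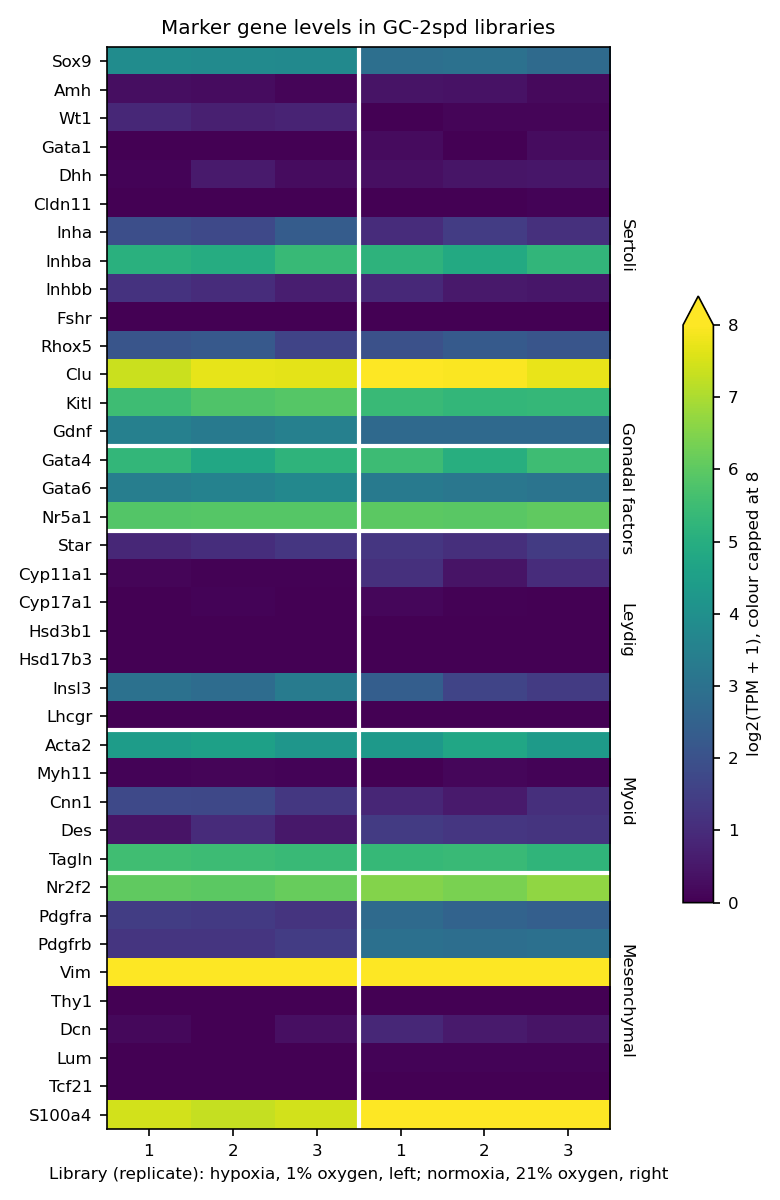
Level of each of the 38 markers in each library as log2(TPM + 1), with genes in rows by list and libraries in columns, hypoxia left and normoxia right. Colours are capped at 8, which Vim exceeds in every library, and the dark rows include the 6 members listed at 0 in all 6 libraries.

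Under hypoxia the mesenchymal markers moved in opposite directions: the intermediate filament gene Vim was higher, while both PDGF receptor genes, S100a4 and Nr2f2 were lower. Of the Sertoli markers, Sox9, Gdnf, Inha and Kitl were higher and Clu was lower. Of 38 members 21 had a mean of at least 1 TPM over the 6 libraries and were tested with limma on log2(TPM + 1), over all genes. Of these 8 were higher, where 17.9% of all tested genes were, and 6 were lower, where 36.1% of all tested genes were. The median of the 21 was −0.06. Calls in either direction covered 54% of all tested genes, so a call on its own sets no member apart. The groups did not overlap in 9 tested members on the higher side, where 21.4% of all tested genes did so, and in 7 on the lower side, where 41% did so. The other 17 members did not exceed 1.23 TPM in any library and were not tested. Cnn1 and Des passed the filter through 1 group only. Cnn1 is included on the higher side and Des on the lower side of the counts above, and neither call is used as support. In bulk RNA, fewer cells of a kind and less RNA per cell cannot be told apart.

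**Figure D3:**
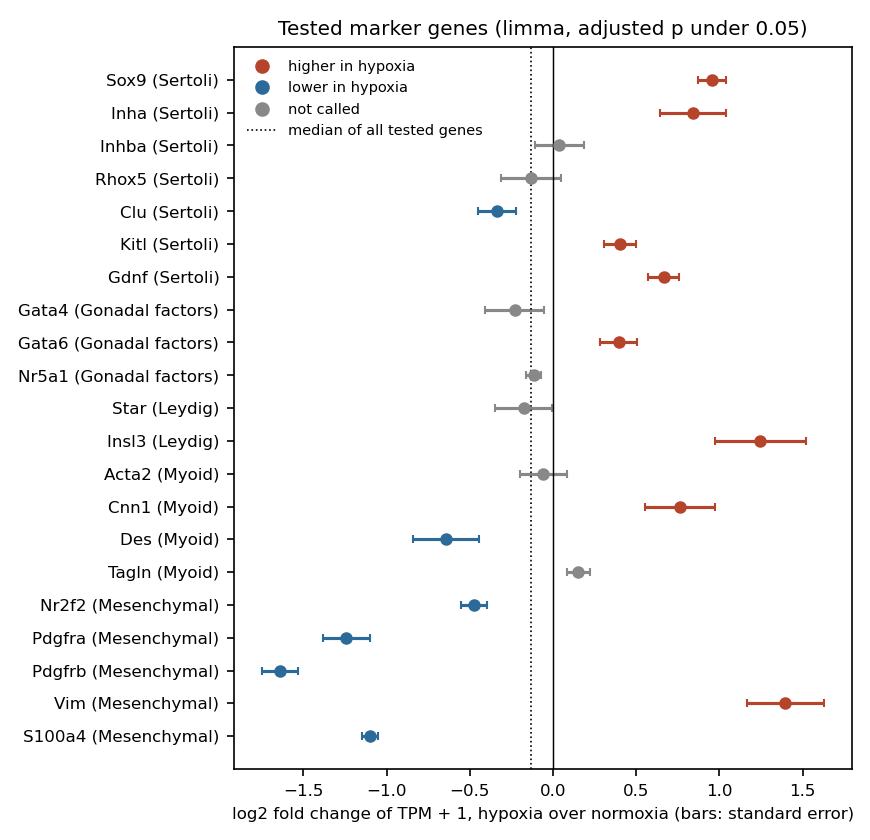
Log2 fold change of TPM + 1, hypoxia over normoxia, of the 21 tested markers with standard errors as bars, coloured by call; the dotted line is the median of all tested genes at −0.13. Vim lies at 1.40 and Pdgfrb at −1.64, both within the mesenchymal list.

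Vim, the intermediate filament of mesenchymal cells (ENSMUSG00000026728, chromosome 2 of mm10 from 13573927 to 13582826), was the most abundant member. It had 3937, 4131 and 4091 TPM in hypoxia, against 1016, 1883 and 1905 TPM in normoxia. The groups did not overlap, and normoxia replicate 1 stood below the other two. The mean was 4053 ± 102 TPM in hypoxia and 1601 ± 507 TPM in normoxia (SD, n = 3 each), a log2 fold change of 1.40 (standard error 0.23, limma adjusted p = 0.00229). Its rank among annotated genes by mean TPM was 18 in hypoxia and 66 in normoxia. Vim alone held 84.4% to 85.2% of the summed TPM of the 38 markers in hypoxia and 50.1% to 66.6% in normoxia.

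The files also list each locus as assembled from the reads, which for Vim gave 3937, 4131 and 4091 TPM in hypoxia and 2038, 1883 and 1905 TPM in normoxia. In normoxia replicate 1 the assembled locus thus held 2038 TPM, whereas the annotated gene held 1016 TPM, and in the other 5 libraries both values were equal. With assembled loci, Vim had a log2 fold change of 1.06 (limma adjusted p = 5.58e-06), and without normoxia replicate 1 it was 1.10 (limma adjusted p = 4.33e-05). The smaller of these values corresponds to a mean of 4053 ± 102 TPM in hypoxia against 1942 ± 83.8 TPM in normoxia (SD, n = 3 each), a ratio of 2.09.

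**Figure D4:**
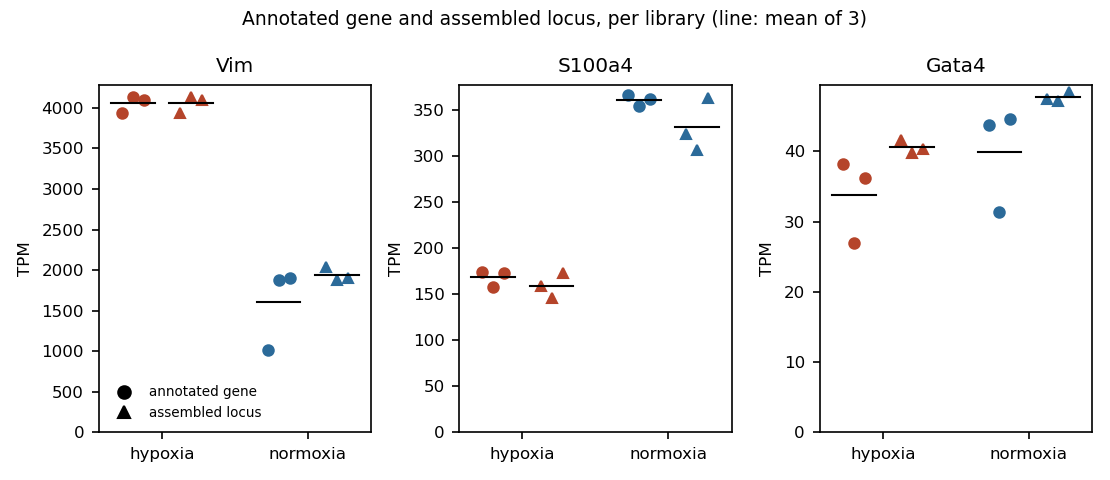
TPM of Vim, S100a4 and Gata4 in each library, for the annotated gene (circles) and for the locus assembled on the same strand (triangles), hypoxia left of normoxia; lines are means of 3 libraries. The annotated Vim value of 1016 TPM in 1 normoxia library stands apart from its assembled value of 2038 TPM.

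S100a4 encodes a calcium-binding protein used as a fibroblast marker (ENSMUSG00000001020, chromosome 3 from 90603770 to 90606045). It had 174, 157 and 173 TPM in hypoxia, against 366, 354 and 362 TPM in normoxia, so the groups lay far apart. The log2 fold change was −1.10 (standard error 0.05, limma adjusted p = 1.08e-05), and with assembled loci −1.05. In GENCODE release 21, 51.7% of its exonic bases are shared with Gm42674 on the same strand. Gm42674 was not found by name among the annotated genes quantified here, so no level can be given for it.

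The receptors for platelet-derived growth factor, which drive growth of mesenchymal cells, were both low and both lower under hypoxia. Pdgfrb (ENSMUSG00000024620, chromosome 18 from 61045150 to 61085061) had 1.36, 1.33 and 1.67 TPM in hypoxia, against 6.69, 6.39 and 6.79 TPM in normoxia. The normoxic mean was 4.56 times the hypoxic mean, with a log2 fold change of −1.64 (standard error 0.11, limma adjusted p = 4.58e-05). Pdgfra had 1.76, 1.54 and 1.32 TPM in hypoxia, against 5.84, 4.90 and 4.31 TPM in normoxia. Its log2 fold change was −1.24 (standard error 0.14, limma adjusted p = 0.000433). Neither receptor's groups overlapped. For Pdgfra the assembled locus was higher in every library than the annotated gene, with 2.43 ± 0.208 TPM in hypoxia and 8.01 ± 0.889 TPM in normoxia (SD, n = 3 each).

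Nr2f2, an orphan nuclear receptor gene of stromal and Leydig progenitor cells, had 64.9, 62.4 and 69.4 TPM in hypoxia, against 91.1, 83.6 and 100.3 TPM in normoxia. It fell with a log2 fold change of −0.47 (standard error 0.08, limma adjusted p = 0.00208), and 7.46% of its exonic bases are shared with B130024G19Rik on the other strand. The matrix proteoglycan genes were near 0. Dcn had 0.135, 0 and 0.251 TPM in hypoxia, against 0.838, 0.483 and 0.33 TPM in normoxia, and was below the filter. Lum was listed at 0 in the 3 hypoxia libraries and had 0.0517 to 0.0607 TPM in normoxia. With no filter on low values Lum had a lower call (log2 fold change −0.078, limma adjusted p = 0.0178), so that setting makes calls on values near 0. Without Vim, the summed TPM of the other markers was 724 ± 30.1 in hypoxia and 975 ± 31.6 in normoxia (SD, n = 3 each).

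Genes of Sertoli cell signalling to the germ line were partly present. Sox9, the transcription factor that starts Sertoli cell fate (ENSMUSG00000000567, chromosome 11 from 112782224 to 112787760), had 13.8, 13.3 and 13.0 TPM in hypoxia, against 6.501, 6.89 and 5.84 TPM in normoxia. This was a 2.08-fold ratio of means and a log2 fold change of 0.95 (standard error 0.08, limma adjusted p = 0.00014). Gdnf, the growth factor that maintains spermatogonial stem cells (chromosome 15 from 7811011 to 7837575), had 10.2, 8.52 and 10.1 TPM in hypoxia, against 5.70, 5.64 and 5.70 TPM in normoxia. It rose with a log2 fold change of 0.67 (standard error 0.09, limma adjusted p = 0.00111). Kitl, the ligand of the KIT receptor, had 45.2, 55.1 and 58.3 TPM in hypoxia, against 41.5, 38.01 and 39.1 TPM in normoxia, and rose by 0.40 on the log2 scale (standard error 0.10, limma adjusted p = 0.012). For each of Sox9, Gdnf and Kitl, every hypoxia library was above every normoxia library, and each call held without any 1 library.

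The receptors for these ligands were all below 1 TPM. Gfra1, the GDNF-binding receptor, is given above with the germ cell markers. Kit averaged 0.0335 ± 0.0404 TPM in hypoxia and 0.0367 ± 0.034 TPM in normoxia, and Ret, the signalling receptor of GDNF, 0.152 ± 0.04 TPM in hypoxia and 0.0889 ± 0.0716 TPM in normoxia (SD, n = 3 each). On a list of 13 ligands and receptors around the markers, 6 were tested, 1 was higher and 2 were lower, and the list's median was −0.078. For all tested genes the shares were 17.9% higher and 36.1% lower. The hedgehog receptor gene Ptch1 was higher (log2 fold change 0.35, limma adjusted p = 0.0208). Lower were Pdgfa, a ligand of the PDGF receptors (36.8 TPM in hypoxia and 53.1 TPM in normoxia), and Gli1, a transcription factor gene activated by hedgehog signalling (0.578 TPM in hypoxia and 2.34 TPM in normoxia). Gli1 passed the filter through normoxia only, and with a mean of at least 5 TPM required 1 gene of the list was lower. The list's 1 higher call was lost without normoxia replicate 1 or 2. Dhh, the hedgehog ligand of Sertoli cells, was below the filter at 0.0548, 0.48 and 0.193 TPM in hypoxia and 0.247, 0.374 and 0.406 TPM in normoxia. It shares 12.4% of its exonic bases with Rhebl1 on the same strand, which averaged 25.2 TPM in hypoxia and 22.0 TPM in normoxia.

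Clu, the chaperone clusterin, was the most abundant Sertoli marker. It had 163, 206 and 202 TPM in hypoxia, against 263, 248 and 209.9 TPM in normoxia, and the nearest libraries of the groups almost met. Its log2 fold change was −0.34 (standard error 0.12, limma adjusted p = 0.0443). That call was lost without hypoxia replicate 1 (adjusted p = 0.105) or 3 (0.0596), without normoxia replicate 1 (0.13) or 2 (0.113), with median-ratio scaling (0.201), with no filter (0.108) and with no variance trend (0.0692). Rhox5, a homeobox gene of mouse Sertoli cells, had 3.27, 3.68 and 2.11 TPM in hypoxia and 2.93, 3.79 and 3.36 TPM in normoxia, with overlapping groups (limma adjusted p = 0.561).

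Wt1, a zinc-finger factor that Sertoli cells need, was below the filter, at 0.87, 0.632 and 0.75 TPM in hypoxia and 0.0181, 0.0897 and 0.0771 TPM in normoxia. Its hypoxia libraries were all above its normoxia libraries. With no filter on low values, the log2 fold change of Wt1 was 0.72, a higher call (limma adjusted p = 0.000949). Amh, the hormone of the fetal Sertoli cell that removes Müllerian ducts, had 0.0788 to 0.232 TPM in hypoxia and 0.144 to 0.342 TPM in normoxia. Gata1 was listed at 0 in hypoxia and at 0.185, 0 and 0.197 TPM in normoxia. The tight junction gene Cldn11, a component of the blood-testis barrier, was listed at 0 in 5 of 6 libraries. On a list of 15 further Sertoli and junction genes only 4 were tested, 2 higher and 2 lower, and 5 were listed at 0 in all 6 libraries. Among all tested genes 17.9% were higher and 36.1% lower. The cadherin gene Cdh2 and the scaffold gene Tjp1 were higher, with log2 fold changes of 0.29 and 0.26. The connexin gene Gja1 averaged 41.4 TPM in hypoxia and 47.9 TPM in normoxia (log2 fold change −0.20, limma adjusted p = 0.00857), and 1 lower call on this list was lost under either rescaling.

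Inhibin subunits were unequal in level. An alpha subunit (Inha) pairs with a beta subunit to form inhibin, and beta subunits (Inhba, Inhbb) pair with each other to form activin. Inhba was the most abundant of these, at 32.6, 30.0 and 41.3 TPM in hypoxia and 35.4, 28.1 and 37.4 TPM in normoxia, with overlapping groups (log2 fold change 0.04, limma adjusted p = 0.844). Inha had 2.82, 2.41 and 4.05 TPM in hypoxia, against 1.00, 1.67 and 1.14 TPM in normoxia, without overlap (log2 fold change 0.84, standard error 0.20, limma adjusted p = 0.0104). Inhbb, at 1.23, 1.02 and 0.603 TPM in hypoxia and 0.901, 0.475 and 0.395 TPM in normoxia, was below the filter. In normoxia the alpha subunit mRNA was thus far below that of the beta A subunit.

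On the list of 13 activin and inhibin signalling genes, 11 were tested, 5 were higher and 2 were lower, and the list's median was 0.016. Over all tested genes, 17.9% were higher and 36.1% lower. Under either rescaling 5 were higher and 1 was lower. Without hypoxia replicate 3 the higher calls numbered 3, and without hypoxia replicate 1 or 2 or normoxia replicate 1 or 3 there was 1 lower call. The activin receptor genes Acvr1b and Acvr2b were higher, with log2 fold changes of 0.74 and 0.81. Fstl3, an activin antagonist, averaged 10.5 TPM in hypoxia and 3.97 TPM in normoxia (log2 fold change 1.23, limma adjusted p = 0.00103). Acvr2a, another activin receptor gene, and the signal transducer gene Smad3 were lower, with log2 fold changes of −0.25 and −0.39.

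The gonadal transcription factors were expressed at moderate levels, with 1 call among them. Nr5a1 (ENSMUSG00000026751, chromosome 2 from 38692656 to 38714542) had 57.1, 57.9 and 58.5 TPM in hypoxia, against 62.3, 61.1 and 64.9 TPM in normoxia. All hypoxia libraries were below all normoxia libraries, but the log2 fold change of −0.12 did not pass (limma adjusted p = 0.0671) and turned to 0.034 with median-ratio scaling. It passed as lower with no filter (adjusted p = 0.0439), with FPKM (−0.16, adjusted p = 0.0111) and without mitochondrially encoded genes (−0.17, adjusted p = 0.0156). Gata4 had 38.2, 27.0 and 36.1 TPM in hypoxia and 43.7, 31.4 and 44.5 TPM in normoxia, with overlap (log2 fold change −0.23, limma adjusted p = 0.301). Its assembled locus had 40.6 ± 0.913 TPM in hypoxia and 47.7 ± 0.656 TPM in normoxia (SD, n = 3 each), and with these values it was lower (limma adjusted p = 0.00547). Relative to the median of all genes that difference is small. Gata6 had 9.63, 10.7 and 12.4 TPM in hypoxia, against 8.72, 8.01 and 7.39 TPM in normoxia (log2 fold change 0.39, limma adjusted p = 0.021). The Gata6 call was lost without hypoxia replicate 2 (adjusted p = 0.0514) or 3 (0.0547) without normoxia replicate 2 (0.0538) or 3 (0.0664), and with no filter (0.0524).

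Most of the steroid-making program of Leydig cells was close to 0. Star, which brings cholesterol into mitochondria, had 0.841, 1.04 and 1.42 TPM in hypoxia and 1.38, 1.13 and 1.60 TPM in normoxia (limma adjusted p = 0.419). Cyp11a1, the side-chain cleavage enzyme that starts steroid synthesis, had 0.0801, 0.0354 and 0.0405 TPM in hypoxia, against 1.17, 0.35 and 1.02 TPM in normoxia. Its groups did not overlap, and it was below the filter. With no filter its log2 fold change was −0.78 (limma adjusted p = 0.028). The next enzyme gene, Cyp17a1, was at 0.0985 TPM or less in every library.

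Genes with wider roles around steroid synthesis were in contrast abundant. Of 17 such genes 13 were tested, 3 were higher and 6 were lower, and the list's median was −0.11 (4 higher and 4 lower after median-ratio scaling). The shares over all tested genes were 17.9% higher and 36.1% lower. The mitochondrial electron donor gene Fdx1 averaged 195 TPM in hypoxia and 127 TPM in normoxia, and its reductase gene Fdxr averaged 31.1 TPM in hypoxia and 64.3 TPM in normoxia. Stard4, a cholesterol carrier, and the reductase gene Por were higher as well, with log2 fold changes of 0.53 and 0.39. Nr4a1, an orphan receptor gene, and Cyb5a, a cytochrome b5 gene, were lower, with log2 fold changes of −0.68 and −0.61.

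Insl3, the Leydig hormone of testis descent (ENSMUSG00000079019, chromosome 8 from 71689214 to 71690575), had 6.96, 6.04 and 9.10 TPM in hypoxia, against 4.22, 2.11 and 1.61 TPM in normoxia. The log2 fold change was 1.25 (standard error 0.27, limma adjusted p = 0.00778). The value is uncertain, because 64.8% of its exonic bases are shared with Jak3, a kinase gene on the same strand. Jak3 averaged 18.1 TPM in hypoxia and 13.0 TPM in normoxia, and the assembled locus at this position may span both genes. The values of that locus were 19.7 ± 1.75 TPM in hypoxia and 13.7 ± 1.22 TPM in normoxia (SD, n = 3 each). With them the log2 fold change was 0.50 (limma adjusted p = 0.00417).

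Of the myoid markers, the actin-binding gene Tagln and smooth muscle actin Acta2 were expressed, and the smooth muscle myosin gene Myh11 was not above 0.112 TPM in any library. Acta2 had 20.6, 22.6 and 17.6 TPM in hypoxia and 18.7, 25.6 and 19.4 TPM in normoxia, with overlapping groups (log2 fold change −0.06, limma adjusted p = 0.75). Tagln had 45.7, 44.2 and 41.9 TPM in hypoxia and 39.96, 41.8 and 36.5 TPM in normoxia, without overlap. Its log2 fold change of 0.15 did not pass (limma adjusted p = 0.0935). It passed with median-ratio scaling (0.30, adjusted p = 0.0138) and quantile normalization (0.28, adjusted p = 0.021). A gene annotated on the other strand shares 62.4% of Tagln exonic bases in GENCODE release 21. That gene was not found by name among the annotated genes quantified here, and strand use in the quantification is not given in the sources used here.

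Cnn1, the smooth muscle calponin, had 2.43, 2.34 and 1.44 TPM in hypoxia and 0.828, 0.477 and 1.11 TPM in normoxia (log2 fold change 0.76, limma adjusted p = 0.0202). This call was lost without hypoxia replicate 1 (adjusted p = 0.0669) or 2 (0.0676), without normoxia replicate 2 (0.0594) and with assembled loci (0.0548). Des, the muscle intermediate filament desmin, had 0.345, 0.99 and 0.438 TPM in hypoxia and 1.64, 1.40 and 1.30 TPM in normoxia (log2 fold change −0.64, limma adjusted p = 0.0315). The Des call was lost without hypoxia replicate 1 (adjusted p = 0.0871) or 3 (0.0825), and with median-ratio scaling (0.0505) or quantile normalization (0.059). Without any 1 of the normoxia libraries Des was below the filter.

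Around the myoid markers, 17 of 21 genes of actin filaments and their regulation by serum response factor were tested. Of these 3 were higher and 7 lower (median −0.11), where 17.9% and 36.1% of all tested genes were. A lower gene of the list passed the filter through normoxia only, and with a mean of at least 5 TPM required 6 were lower. With median-ratio scaling 6 were higher and 3 lower, and without normoxia replicate 2 lower calls numbered 4, so no direction is given for this list. The smoothelin gene Smtn had 118, 138 and 135 TPM in hypoxia, against 57.1, 52.3 and 56.3 TPM in normoxia (log2 fold change 1.22, limma adjusted p = 3.05e-05). The tropomyosin genes differed: Tpm4 was higher (log2 fold change 0.41), whereas Tpm1 was lower (−0.32). Myocd, the cofactor that switches on smooth muscle genes, was listed at 0 in all 6 libraries.

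Markers of other cell types were examined in the same libraries, where 17.9% of all tested genes were higher and 36.1% lower. Of 8 epithelial markers 2 were tested. The keratin gene Krt19 had 9.61, 8.25 and 10.0 TPM in hypoxia, against 0.894, 1.59 and 2.35 TPM in normoxia (log2 fold change 2.01, limma adjusted p = 0.000306). Krt14 averaged 2.19 TPM in hypoxia and 0.817 TPM in normoxia and passed the filter through hypoxia only, so its call is given as values. Krt8 averaged 0.387 TPM in hypoxia and 0.765 TPM in normoxia, and Cldn7, Cdh1 and Cldn4 had means below 0.113 TPM in both groups. The summed epithelial list was 11.7 to 12.3 TPM in hypoxia and 2.65 to 3.88 TPM in normoxia. Krt19 made up most of the hypoxia sum, and Epcam was listed at 0 in 5 of 6 libraries. Of 8 macrophage markers 3 were tested: the lysosomal gene Cd68 was higher (9.41 TPM in hypoxia and 6.41 TPM in normoxia), the endotoxin receptor gene Cd14 was lower (10.1 TPM in hypoxia and 18.9 TPM in normoxia) and Csf1r was not called, while Adgre1, Ptprc, Lyz2, C1qa and Itgam were listed at 0 in all libraries. The summed macrophage list was 20.1 to 21.6 TPM in hypoxia and 25.04 to 28.2 TPM in normoxia. None of 7 endothelial markers was tested, and their sum was 0.294 to 1.51 TPM in hypoxia and 0.96 to 2.27 TPM in normoxia. The part of these markers in the changes above was not tested.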

How the data were processed

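Poly(A) RNA of 6 GC-2spd libraries was sequenced in pairs. According to the submitters' processing notes and the study's methods, the authors used cutadapt for read filtering, HISAT2 for alignment (mm10) and StringTie for quantification; versions and annotation release are not given in the sources used here. The deposited TPM column lists annotated genes and, separately, assembled loci, and the loci alone sum to 1000000 per library; only annotated genes were used, as deposited. The deposited FPKM served as an alternative, and the deposited coverage (mean read depth, not scaled for library size) only for depth. Of 43432 gene IDs, 42462 were matched to symbols of GENCODE mouse release 21, and TPM was summed per symbol. Coordinates are those of the files.

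limma 3.58.1 in R 4.3.3 was run on log2(TPM + 1) of genes with a mean of at least 1 TPM (variance trend, 2-sided, Benjamini-Hochberg over all 13749 genes, threshold 0.05). A pseudocount of 1 understates fold changes of low genes. The study tested counts, which are not used here. The same steps were tested on simulated data. All 38 members are accounted for. Of each further list, at most 3 genes per direction with the smallest adjusted p are named, or those with the highest level; defining markers at or near 0, ligand receptors, further epithelial markers and Csf1r were named beyond this rule after their values were seen. Members and lists were chosen with earlier results of these data known. The design assumed an ordinary TPM table. The assembled-locus alternative was chosen after seeing the data. A further gene of the lists is not reported here.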

Additional observations from a re-analysis of the deposited data

How the results depend on the processing

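The 8 higher and 6 lower members became 6 and 3 when a mean of at least 5 TPM was required, which tests fewer genes. Their median (−0.06) was 0.096 with that filter, 0.087 after median-ratio scaling and 0.12 after quantile normalization, and without single libraries it ranged from −0.082 to 0.035, so its sign depends on these settings. Without single libraries 6 to 8 members were higher and 4 to 6 lower. Of the 14 called members, all but Clu, Gata6, Cnn1 and Des kept call and direction under every alternative in which they were tested. For Insl3 the log2 fold change fell to 0.50 with the assembled locus, which may span Jak3 as well, so it is no check of Insl3 alone. Over all genes, 2463 higher and 4967 lower calls became 3660 and 3578 with median-ratio scaling. Members whose uncalled value changed sign were Inhba (−0.012 with FPKM, −0.018 without mitochondrially encoded genes, −0.069 with assembled loci, −0.092 to 0.13 without single libraries), Acta2 (0.087 after median-ratio scaling, 0.12 after quantile normalization, −0.14 to 0.079 without single libraries), Rhox5 (0.050 with quantile normalization, −0.25 to 0.041 without single libraries) and Nr5a1 (0.034 with median-ratio scaling); the cause was not tested. Same-numbered libraries of the groups showed no strong shared deviation (r = 0.0259, 0.0333 and 0.0109 for replicates 1, 2 and 3). Such values cannot show whether same-numbered libraries were handled together. With the replicate number as a block 2281 genes were higher and 4674 lower, and among members 6 and 5; Clu, Cnn1, Des and Gata6 were not called and Gata4 was. Depth in reads is unknown, and values under 1 TPM are the least certain.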
